A study of Mus musculus with 37 samples.

Results

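The genes described here are 9 members of the Six-Eya-Dach-Sobp network, measured in whole mouse hearts of embryonic stage E10.5 by bulk RNA sequencing of paired reads. They are the DNA-binding factors Six2, Six4 and Six5, the coactivators Eya1, Eya2, Eya3 and Eya4, the corepressor Dach1 and the partner protein Sobp. They were picked by symbol from a count table of 25239 gene rows, because of values seen in these same libraries, so their differences between genotypes are given as a description. Of the 9, 8 had enough counts to be tested with 15046 genes in all, and Eya2 did not.

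SIX-family proteins bind DNA through a homeodomain and have little activating power of their own. EYA proteins are brought to DNA by the SIX-family proteins and act there as coactivators, and they also carry a phosphatase domain. DACH proteins oppose activation by recruiting corepressor complexes, and SOBP, named after the fly gene sine oculis, is a nuclear zinc finger protein that binds SIX-family proteins. In mouse embryos the network is known for its part in the ear, kidney, eye, skeletal muscle precursors and the pharyngeal region next to the heart tube.

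The embryos came from Stra8-iCre; Nipbl Flox/+ fathers, whose sperm carry Nipbl Flox, a working allele, or Nipbl FIN, a null allele, and from Isl1 Cre/+ mothers, in which Cre recombinase occupies 1 Isl1 allele and leaves it without function. The groups were wild-type (Nipbl +/+; Isl1 +/+, n = 10), Isl1_het (Isl1 +/-, n = 9), Nipbl_het (Nipbl +/-, n = 9) and double_het (Nipbl +/-; Isl1 +/-, n = 9). Nipbl encodes the loader of cohesin, the ring complex that forms chromosome loops, and Isl1 a LIM homeodomain factor of cardiac progenitors. Embryos labelled Isl1 +/- can carry Cre beside a Nipbl Flox allele, and whether it acted there was not tested; Nipbl was 61.5 ± 5.88 CPM (counts per mega-count of library after TMM scaling, SD, n = 9) in Isl1_het and 60.0 ± 10.1 CPM (SD, n = 10) in wild-type. The labels also give each library a set number. Set 1 held wild-type and Isl1_het libraries only, sets 2, 5 and 6 held all 4 genotypes, and set 7 held only double_het replicate 2, so that fitted values of double_het rest on 8 libraries.

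Depth ranged from 23.4 to 51.0 mega-counts (M) per library with a median of 36.2 M. The 8 cardiomyocyte markers checked against the labelled tissue summed to between 19770 and 29888 CPM in every library. Nipbl itself was 39.3 ± 13.8 CPM (SD, n = 9) in Nipbl_het and 38.1 ± 7.41 CPM (SD, n = 9) in double_het. The highest double_het library, replicate 2, held 51.5 CPM, inside the wild-type range of 47.6 to 78.8 CPM. The library labelled Nipbl_het replicate 2 went against its label with 72.4 CPM of Nipbl, whereas the other Nipbl_het libraries held 27.1 to 44.9 CPM. It also held the highest Six4, Eya1 and Dach1 values of all libraries, and results that rest on it are given with and without it. Genes other than the members peaked there too. Skil was 107 CPM (median 33.6 CPM over all libraries) and Zmym2 was 120 CPM (median 54.9 CPM). The labels call the replicates separate samples of a genotype and do not say which share a litter.

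Per kilobase of exon, the members fell into 3 tiers in wild-type hearts. The top tier was Eya3 at 8.51 ± 0.857 CPM per kilobase (SD, n = 10) and Six5 at 8.38 ± 0.762, whose ranges overlapped. Dach1 at 1.81 ± 0.422 and Sobp at 1.46 ± 0.312 CPM per kilobase formed the middle tier and also overlapped. The lowest tier held Six4 at 0.366 ± 0.104, Eya4 at 0.254 ± 0.0330, Eya1 at 0.213 ± 0.0558, Six2 at 0.115 ± 0.0788 and Eya2 at 0.0299 ± 0.0513 CPM per kilobase, each overlapping the next. No wild-type library of Six5 came as low as any of Dach1, and none of Sobp came as low as any of Six4. Six5, Eya3 and Dach1 were thus the most abundant of the measured members of their families. Gene positions below are from GENCODE on build GRCm38.

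Sobp RNA was lower in hearts labelled with 1 working Nipbl allele, in both Isl1 genotypes, and no other member was called different between any genotypes at an adjusted p under 0.05 in edgeR's quasi-likelihood test over all libraries. Without Nipbl_het replicate 2, Six5 was called as well (adjusted p 0.0303 in Nipbl_het against wild-type). Sobp lies on the minus strand of chromosome 10 at chr10:43002500-43174530. In wild-type libraries it measured 5.45 to 10.3 CPM with a median of 8.28 CPM. In Isl1_het libraries it measured 5.20 to 10.9 CPM with a median of 8.06 CPM. The Nipbl_het libraries held 4.02 to 6.51 CPM with a median of 5.41 CPM, and the double_het libraries 3.78 to 5.94 CPM with a median of 5.22 CPM. All 18 libraries labelled with 1 Nipbl allele lay below the median of the 19 libraries labelled with 2, which was 8.10 CPM. Of those 19, 16 lay above all 18, and equally above the 17 that remain without Nipbl_het replicate 2. The remaining 3 were wild-type replicate 1 at 5.45 CPM and Isl1_het replicate 1 at 5.20 CPM, both of set 1, and wild-type replicate 7 at 6.02 CPM in set 2. In a bulk sample, fewer cells of a type and less RNA per cell cannot be told apart.

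**Figure D1:**
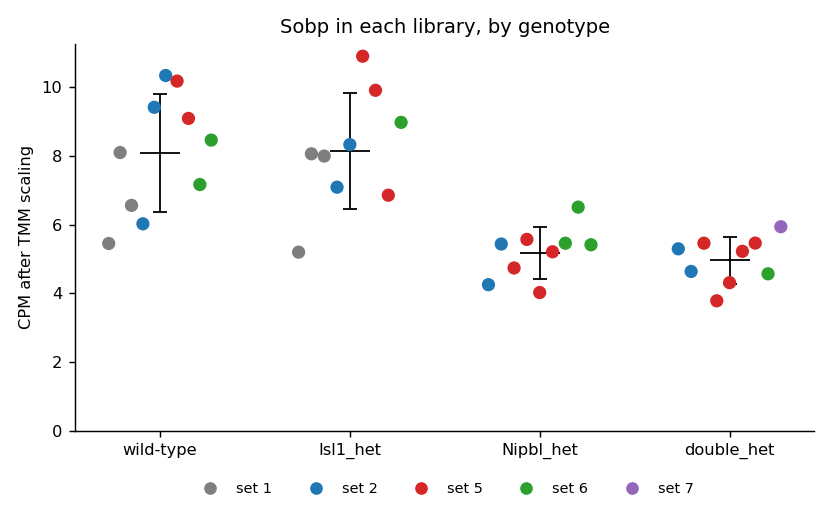
Sobp level in each library (y axis, CPM after TMM scaling, from 0) by genotype (x axis), with points coloured by set number and bars at the mean ± SD. The 18 Nipbl_het and double_het libraries sit between 3.78 and 6.51 CPM, and 16 of the 19 wild-type and Isl1_het libraries sit above all of them.

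Within each set that held both Nipbl genotypes, the Sobp values did not overlap. In set 2 the libraries labelled with 2 working Nipbl alleles held 6.02 to 10.3 CPM, and those labelled with 1 held 4.25 to 5.43 CPM. In set 5 the ranges were 6.85 to 10.9 CPM and 3.78 to 5.57 CPM, or 3.78 to 5.46 CPM without Nipbl_het replicate 2, whose Nipbl level goes against its label. In set 6 they were 7.17 to 8.98 CPM and 4.57 to 6.51 CPM. Over these 3 sets, all 17 libraries labelled with 1 allele lay below every library of their own set labelled with 2. Without Nipbl_het replicate 2, all 16 did. Sobp was chosen knowing this contrast, and how many other genes separate in this way was not measured. Nipbl_het and wild-type libraries differed in mean log2 CPM by -0.79 in set 2, -0.98 in set 5 and -0.43 in set 6. Between double_het and wild-type it was -0.75 in set 2, -0.996 in set 5 and -0.76 in set 6, where set 6 held a single double_het library.

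In the fit over all libraries, the log2 change of Sobp in Nipbl_het against wild-type was -0.75 (SE 0.12, adjusted p 6.06e-04), a level 0.595 times that of wild-type. In that comparison 1.71% of all genes were called and 0.518% of all genes were called lower, and 1 of the 8 tested members was called. The change in double_het against wild-type was -0.84 (SE 0.13, adjusted p 1.32e-04), where 2.60% of all genes were called and 0.824% were called lower. In double_het against Isl1_het it was -0.86 (SE 0.13, adjusted p 2.12e-04), where 0.957% of all genes were called and 0.425% were called lower. These comparisons share control libraries. Without the 14 libraries of set 5 none of the 3 was called, at -0.61 (adjusted p 0.0627), -0.76 (adjusted p 0.0732) and -0.78 (adjusted p 0.175) in the same order. Averaged over the Isl1 genotypes, the change with Nipbl loss was -0.80 (SE 0.09, adjusted p 6.82e-07). That comparison called 4.02% of genes and 1.36% lower. The members were chosen knowing these contrasts, so nothing is read from their p-values or their count against the background. With the library labelled Nipbl_het replicate 2 left out, Sobp in Nipbl_het stood at -0.76 (adjusted p 5.23e-04) and the averaged change at -0.81 (adjusted p 5.77e-07).

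The Isl1 genotype did not go with a called change of Sobp. Its log2 change in Isl1_het against wild-type came to 0.02 (SE 0.11, adjusted p 0.985), with a 95% interval of -0.20 to 0.25. In double_het against Nipbl_het it was -0.09 (SE 0.13, adjusted p 0.863), with an interval of -0.34 to 0.15. The interaction, the extra change when both alleles were lost, was -0.11 (SE 0.17, adjusted p 0.999), with an interval of -0.44 to 0.22. A p above the threshold does not show that the Isl1 genotype had no effect, and changes within these intervals are not excluded. Each of these 3 comparisons called 0% of all genes with edgeR, against 886 genes in Isl1_het against wild-type, 1355 in double_het against Nipbl_het and 411 in the interaction at an unadjusted p under 0.05. DESeq2 called 0 members in each of the 3.

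**Figure D2:**
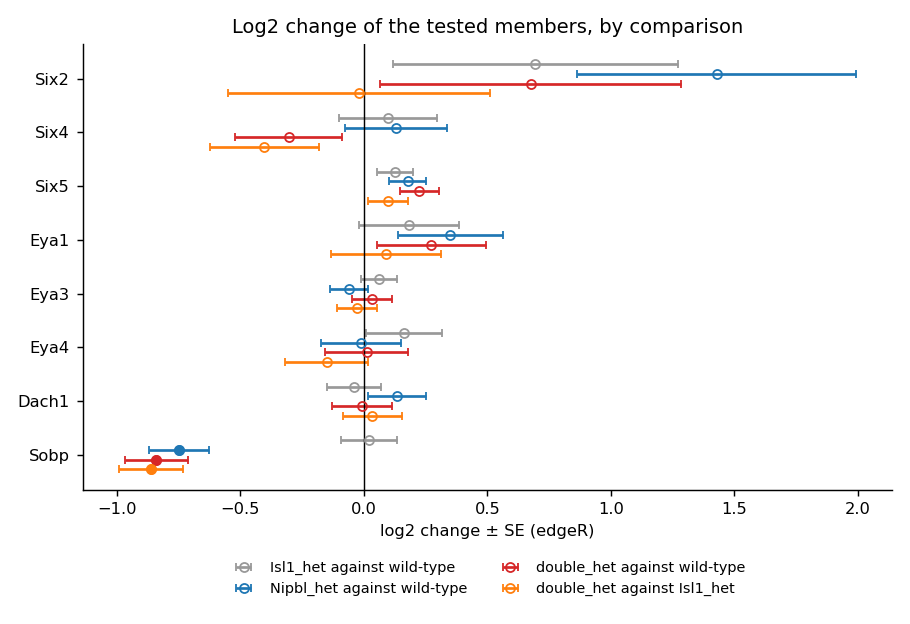
Log2 change of the 8 tested members (x axis, edgeR, with bars of 1 SE) in 4 comparisons (colours); filled points passed an adjusted p under 0.05 and open points did not. Sobp is the only gene with filled points, at -0.75, -0.84 and -0.86, and its value in Isl1_het against wild-type is 0.02.

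RNA of epicardial markers also differed between genotypes in these libraries, and the part of other cell populations in the Sobp values was not tested beyond the following measurements. The summed level of 7 epicardial markers ranged from 240 to 411 CPM in wild-type, 282 to 509 CPM in Isl1_het, 378 to 531 CPM in Nipbl_het and 482 to 627 CPM in double_het, with no overlap between wild-type and double_het. In double_het against wild-type 6 of the 7 were called higher, namely Wt1, Upk3b, Sema3d, Tbx18, Bnc1 and Upk1b, with log2 changes from 0.38 to 0.73. With the mean log2 CPM of these markers added to the fit after seeing the data, the Sobp change in double_het against wild-type was -0.55 and no longer called (adjusted p 0.537), and over all genes that fit called 7, beside 391 without the markers. In Nipbl_het against wild-type Sobp was still called in that fit (log2 change -0.61, adjusted p 0.0217). The summed level of 10 pharyngeal and second heart field markers, a list that includes Isl1 itself, ranged from 76.5 to 154 CPM in wild-type, 92.4 to 127 CPM in Isl1_het, 82.6 to 169 CPM in Nipbl_het and 111 to 157 CPM in double_het. With those markers in the fit, the Sobp change in Nipbl_het against wild-type was -0.64 and no longer called (adjusted p 0.103), and over all genes that fit called 27, beside 258 without the markers. The averaged change with Nipbl loss was called in both of these fits. Erythroid markers, of which 0 of 5 were called in any genotype comparison, summed to 482 to 105367 CPM over all libraries. After removal of genotype and set means, Sobp followed them inversely (Spearman rho -0.56, n = 37 libraries). It followed the cushion mesenchyme (rho 0.47) and cardiomyocyte markers (rho 0.45) directly. Its rho was -0.26 with the epicardial markers and -0.18 with the pharyngeal and second heart field markers. These are descriptions over libraries that share depth and composition. With the erythroid markers in the fit Sobp was called in all 4 Nipbl comparisons.

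The base composition of the Sobp start region stood out among RefSeq promoter windows. The window of 300 bases, from 250 before to 50 after the start, held 78.3% G and C, more than 98.2% of 32851 windows on GRCm38.p6, whose median was 52.7%. Its ratio of observed to expected CpG dinucleotides was 0.899, against a median of 0.384, which was above 87.3% of windows and below the ratio of Six2 (1.13), Eya4 (1.02) and Eya3 (0.955). The 250 bases upstream are printed because Sobp is the member that was called lower; capitals mark its 33 CpG dinucleotides, and the strand is minus, at chr10:43174531-43174780 (RefSeq, GRCm38.p6).
Sobp upstream: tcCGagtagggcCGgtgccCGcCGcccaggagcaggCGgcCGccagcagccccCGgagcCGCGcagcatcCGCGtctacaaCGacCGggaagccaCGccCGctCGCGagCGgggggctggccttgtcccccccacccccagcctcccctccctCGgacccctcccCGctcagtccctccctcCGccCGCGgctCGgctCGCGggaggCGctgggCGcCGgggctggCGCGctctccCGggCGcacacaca
A core CTCF motif was found on neither strand of the windows of the 7 members that had one, and 0.636% of 27025 genes held it. The match is to letters in a window and is no measure of binding.

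The 6 tested genes nearest to Sobp, 3 on each side, were not called changed with Nipbl loss. They were Scml4, Sec63, Ostm1, Pdss2, Bend3 and 9030612E09Rik, with averaged log2 changes from -0.44 to 0.13. The lowest was Scml4, a Polycomb-like gene 41.7 kilobases away, at -0.44 (SE 0.20, adjusted p 0.280). Exons of the antisense gene Gm29246 share 260 bases with exons of Sobp, and 9030612E09Rik overlaps it in RefSeq. Without a stated strand setting, reads of such genes cannot be told apart from those of Sobp.

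The genes whose levels followed Sobp most closely after removal of genotype and set means were Serpine2, a secreted protease inhibitor (Spearman rho 0.74 over 37 libraries), and Cdh13, a cadherin without a transmembrane part (rho 0.72). These were the highest of 12074 genes ranked and are given as a description.

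Among the SIX-family factors, none was called changed between genotypes, and Six5, the most abundant of them per kilobase, was the least variable. Six5 lies at chr7:19094594-19098549 on the plus strand. It measured 21.5 to 28.4 CPM with a median of 25.4 CPM in wild-type and 25.5 to 28.9 CPM with a median of 27.6 CPM in Isl1_het. It measured 19.9 to 32.9 CPM with a median of 28.3 CPM in Nipbl_het and 26.1 to 31.9 CPM with a median of 29.2 CPM in double_het. The ranges of all groups overlapped. The log2 change was 0.18 (SE 0.07, adjusted p 0.243) in Nipbl_het and 0.22 (SE 0.08, adjusted p 0.158) in double_het, both against wild-type. The lowest Six5 value of all, 19.9 CPM, was in the library labelled Nipbl_het replicate 2. Without that library the change was 0.23 and called in Nipbl_het (SE 0.06, adjusted p 0.0303), and 0.16 and called when averaged over the Isl1 genotypes (SE 0.05, adjusted p 0.0260). In double_het it was then 0.20 and not called (adjusted p 0.0507). Dmpk, a kinase gene that lies less than a kilobase from Six5 (gap 0.723 kilobases), rose with Nipbl loss averaged over the Isl1 genotypes (log2 change 0.31, SE 0.08, adjusted p 0.0287). It was one of 2 called among 54 neighbours of the members (3.70%) in that comparison, a share near the 4.02% of all genes. The other was Epas1, a hypoxia-response factor gene 1066 kilobases from Six2, at -0.37 (SE 0.07, adjusted p 0.00112). Dmpk was no longer called without Nipbl_het replicate 9 (adjusted p 0.0507). Without Nipbl_het replicate 2, whose Nipbl level goes against its label, 5 neighbours (9.26%) were called beside 6.93% of all genes. Epas1 and Dmpk were among these neighbours.

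Six4, at chr12:73099609-73113456 on the minus strand, was a gene of low level whose mean depended on a single library. It measured 2.01 to 5.62 CPM in wild-type with a median of 4.06 CPM, and 2.72 to 6.14 CPM in Isl1_het with a median of 4.51 CPM. Of the Nipbl_het libraries, 8 lay between 3.00 and 3.98 CPM, and the library labelled Nipbl_het replicate 2 held 14.4 CPM. The double_het libraries held 3.07 to 4.59 CPM with a median of 3.67 CPM. The log2 change in Nipbl_het against wild-type was 0.13 (SE 0.21, adjusted p 0.805) with that library and -0.20 without it. Averaged over the Isl1 genotypes, the change with Nipbl loss was -0.14 (SE 0.16, adjusted p 0.770) with it and -0.29 (SE 0.09, adjusted p 0.0529) without it, and neither was called. Against Isl1_het, the change in double_het was -0.40 (SE 0.22, adjusted p 0.774).

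The Six4 start region held the only match among the members to the sequence TCAGGTTTC, a site bound by SIX-family proteins, on the strand opposite to the gene. It is shown because SIX-family factors are themselves members of the network. RefSeq gives 2 starts of Six4. The match lies 99 bases before the start at position 73113245 and 81 bases after that at 73113425, whose window does not reach it, and so inside the gene as GENCODE draws it. Capitals mark it, written as the reverse complement, at chr12:73113325-73113354 on the minus strand (RefSeq, GRCm38.p6).
Six4 site: tggcctggggGAAACCTGAtcggccagatc
On either strand, 0.511% of 27025 genes with a window held TCAGGTTTC, and 16.3% held its first letters TCAGGT, which among the 7 members with a window were also found in Six4 alone and overlap the longer match. Whether a SIX-family protein binds there was not measured.

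Six2, at chr17:85684277-85688274 on the minus strand, was near the limit of detection in most hearts and high in a few. A wild-type library had no count, which allows up to 0.0890 CPM (3 counts), and the other wild-type values reached 0.504 CPM with a median of 0.228 CPM for the group. In Isl1_het the range was 0.0917 to 1.05 CPM with a median of 0.332 CPM. In Nipbl_het it was 0.230 to 2.94 CPM with a median of 0.433 CPM, and in double_het 0.0658 to 1.92 CPM with a median of 0.339 CPM. The highest 4 values were in Nipbl_het replicate 9 (2.94 CPM), the library labelled Nipbl_het replicate 2 (1.99 CPM), double_het replicate 8 (1.92 CPM) and Isl1_het replicate 5 (1.05 CPM). The fitted log2 change in Nipbl_het against wild-type was 1.43 (SE 0.56, adjusted p 0.209). It was 1.05 without the library labelled Nipbl_het replicate 2 and 1.03 without replicate 9. It was 0.72 without set 2 and 2.23 without set 6, and with the mean log2 CPM of the pharyngeal and second heart field markers in the fit, added after seeing the data, it turned to -0.19 (adjusted p 0.935). After removal of genotype and set means, Six2 followed those markers (Spearman rho 0.48, n = 37 libraries). Its rho with the 4 tested neural crest markers was 0.57. These are descriptions, and the part of such cells in the Six2 values was not tested further. None of these fits called Six2.

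Some of the libraries with high Six2 also held transcripts of muscle precursor genes. Myod1, a determination factor of skeletal muscle, had no count in 31 libraries and reached 1.17 CPM in Nipbl_het replicate 9 and 0.540 CPM in Isl1_het replicate 5. Of the 5 skeletal myoblast markers in the list, 0 had enough counts to be tested. Their summed level ranged from 0 to 0.351 CPM in wild-type, 0 to 0.977 CPM in Isl1_het, 0.0248 to 2.44 CPM in Nipbl_het and 0 to 0.226 CPM in double_het. The highest sums were again in Nipbl_het replicate 9 and Isl1_het replicate 5. Of these markers, Mymk had no count in either library. Pax7 had no count in Nipbl_het replicate 9 and was 0.0257 CPM in Isl1_het replicate 5. The library double_het replicate 8, also high in Six2, held 0.0377 CPM of Myod1. Nipbl_het replicate 9 also held the highest liver marker sum, 382 CPM, while the other genotypes reached at most 21.8 CPM. In the library labelled Nipbl_het replicate 2, Myod1 and Myf5 had no count. The part of these cell populations in the Six2 values was not tested.

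**Figure D3:**
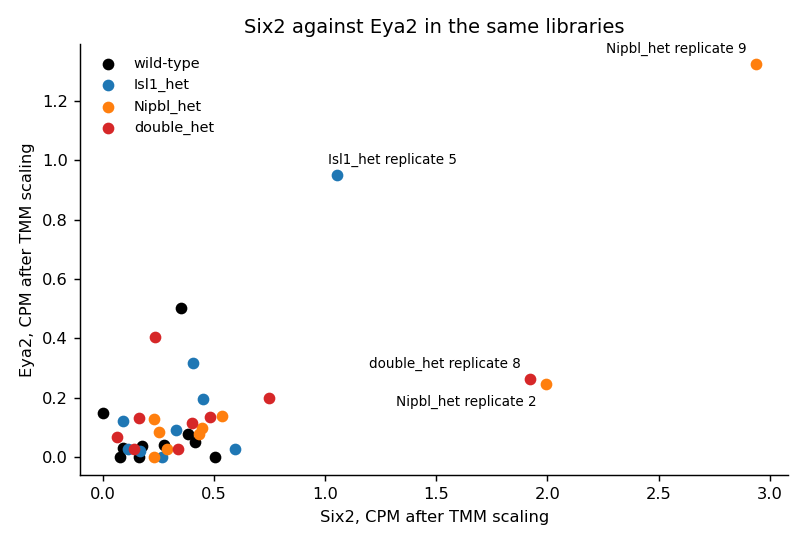
Six2 level (x axis) against Eya2 level (y axis) in each of the 37 libraries, both in CPM after TMM scaling and coloured by genotype. Nipbl_het replicate 9 holds the highest value of each gene, at 2.94 CPM of Six2 and 1.33 CPM of Eya2, and most libraries lie near the origin.

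Among the EYA coactivators, Eya3 was the abundant one and no genotype changed it beyond the threshold. Eya3, at chr4:132638987-132724765 on the plus strand, measured 41.8 to 57.2 CPM in wild-type (median 47.6 CPM) and 45.3 to 54.4 CPM in Isl1_het (median 49.6 CPM). In Nipbl_het it measured 34.2 to 58.2 CPM (median 48.1 CPM) and in double_het 40.7 to 56.2 CPM (median 50.9 CPM). The ranges of all groups overlapped. Averaged over the Isl1 genotypes, its log2 change with Nipbl loss was -0.04 (SE 0.06, adjusted p 0.796), with a 95% interval of -0.16 to 0.07. That interval excludes a change as large as the one of Sobp.

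Eya1 and Eya4 were far below Eya3 per kilobase and were not called in any comparison. Eya1, at chr1:14168954-14310235 on the minus strand, measured 1.17 to 2.53 CPM in wild-type (median 1.53 CPM), 1.24 to 2.67 CPM in Isl1_het (median 1.76 CPM) and 1.29 to 2.67 CPM in double_het (median 2.28 CPM). In Nipbl_het it measured 1.17 to 2.76 CPM in 8 libraries and 5.92 CPM in the library labelled Nipbl_het replicate 2. The log2 change in Nipbl_het against wild-type was 0.35 (SE 0.21, adjusted p 0.442) and 0.07 without that library. Eya4, at chr10:23102963-23350786 on the minus strand, measured 1.82 to 2.93 CPM in wild-type, 2.23 to 3.24 CPM in Isl1_het, 1.39 to 3.59 CPM in Nipbl_het and 1.46 to 3.29 CPM in double_het. Its averaged log2 change with Nipbl loss was -0.08 (SE 0.12, adjusted p 0.835).

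Eya2, at chr2:165595032-165771727 on the plus strand, had no count in 5 of the 37 libraries, where 3 counts would be 0.0805 to 0.0990 CPM, and at most 51 counts elsewhere. It measured up to 0.502 CPM in wild-type, 0.951 CPM in Isl1_het, 1.33 CPM in Nipbl_het and 0.405 CPM in double_het. The highest values were in wild-type replicate 7, Isl1_het replicate 5 and Nipbl_het replicate 9, all of set 2. The latter pair are the libraries with the highest Myod1.

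**Figure D4:**
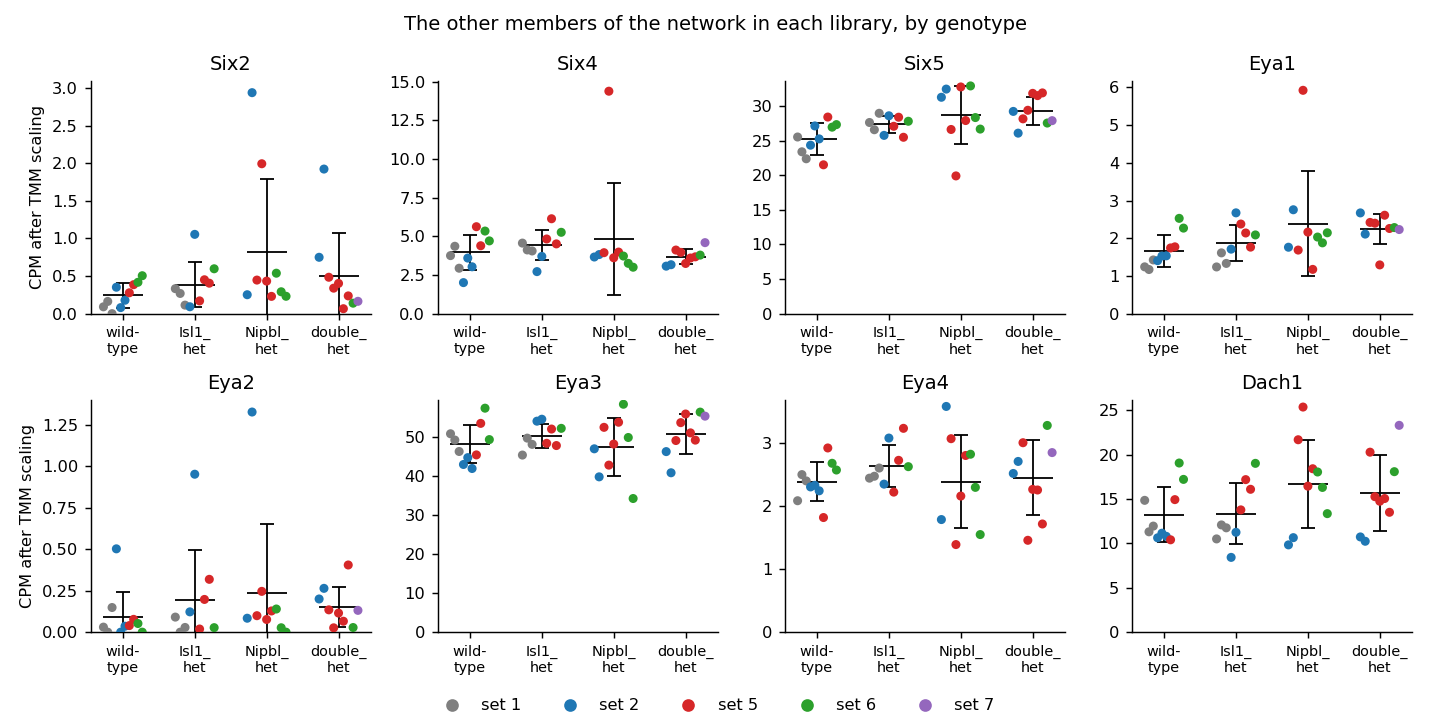
Levels of Six2, Six4, Six5, Eya1, Eya2, Eya3, Eya4 and Dach1 in each library (y axes, CPM after TMM scaling, from 0, with a scale of its own for each gene) by genotype (x axes), coloured by set number, with bars at the mean ± SD. The library labelled Nipbl_het replicate 2 stands above the rest of its group in Six4 (14.4 CPM) and Eya1 (5.92 CPM) and below it in Six5 (19.9 CPM).

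Dach1, the corepressor, differed between sets, and no difference between genotypes was called. It lies at chr14:97786853-98169765 on the minus strand. Across the genotypes it measured 10.4 to 19.1 CPM in wild-type (median 11.6 CPM), a median of 12.1 CPM in Isl1_het with a lowest library at 8.43 CPM, 9.84 to 25.4 CPM in Nipbl_het (median 16.5 CPM) and 10.2 to 23.3 CPM in double_het (median 15.1 CPM). In the fit with set terms, the log2 change in Nipbl_het against wild-type was 0.13 (SE 0.12, adjusted p 0.615) and in double_het -0.01 (SE 0.12, adjusted p 0.992). Without Nipbl_het replicate 2, which held the highest Dach1 level, the former was 0.06 (adjusted p 0.867), and without wild-type replicate 4 it was 0.04 (adjusted p 0.905). Without set terms, over all libraries, the changes were 0.33 and 0.24, and neither was called. In Nipbl_het against wild-type the difference in mean log2 CPM was 0.69 in set 5, -0.08 in set 2 and -0.20 in set 6, and without set 5 the fitted change turned to -0.16 (adjusted p 0.424).

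The 9 libraries of set 2 held 8.43 to 11.3 CPM of Dach1, a mean of 10.4 ± 0.860 CPM (SD). The 6 of set 1 held 12.1 ± 1.48 CPM (SD) and at most 14.9 CPM, the 14 of set 5 held 10.4 to 25.4 CPM, the 7 of set 6 held 13.4 to 19.1 CPM, and the library of set 7 held 23.3 CPM. All of set 6 therefore lay above all of set 2, whatever the genotype. The set terms together were past the threshold for Dach1 (F 14.5, adjusted p 3.79e-05), the only one of the 8 tested members, in a test that called 38.2% of all genes. Next were Six4 (adjusted p 0.0584), Six2 (adjusted p 0.106) and Sobp (adjusted p 0.150). Without set 2, Dach1 was no longer called. Without the library labelled Nipbl_het replicate 2, Dach1, Six2, Six4 and Eya1 were called, 4 of the 8, in a test that called 55.7% of all genes. The set number is the digit after the letters IVF in the labels, which do not say what it marks.

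**Figure D5:**
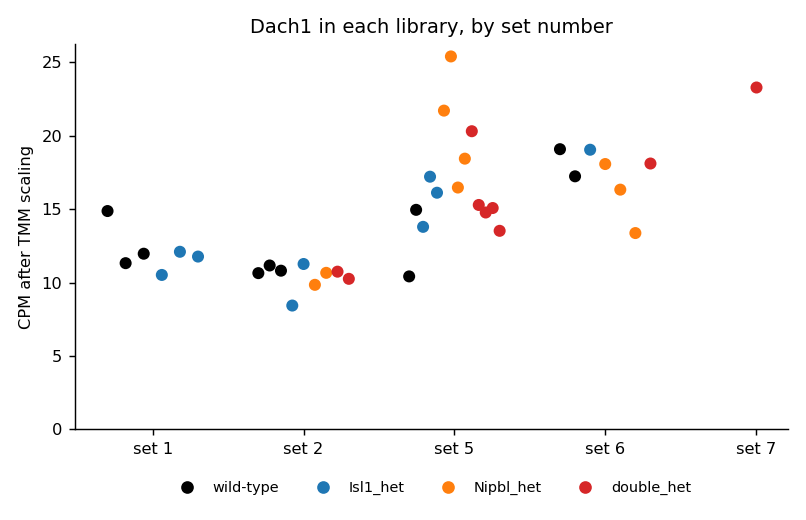
Dach1 level in each library (y axis, CPM after TMM scaling, from 0) by set number (x axis), coloured by genotype. The 9 libraries of set 2 lie between 8.43 and 11.3 CPM in all 4 genotypes, below the 7 libraries of set 6 at 13.4 to 19.1 CPM.

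The median log2 change of the 8 tested members was 0.13 in Nipbl_het and 0.02 in double_het against wild-type, beside 0.01 and -0.0019 over all genes. Without Nipbl_het replicate 2 these medians of the members were 0.06 and 0.0096, beside -0.0099 and -0.0047 over all genes. Of the 8 values, 4 were positive with Nipbl loss averaged, 5 in Nipbl_het and 5 in double_het against wild-type, 7 in Isl1_het against wild-type and 1 in the interaction. These comparisons share libraries, and 0 of the 8 were called in the last pair. The median of the members was 0.11 and -0.13 in that pair, beside -0.0034 and -0.0016 over all genes. The share of positive values over all genes was not counted.

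The members also did not vary together beyond the threshold within genotype and set. Over 36 pairs of the 9 genes in 37 libraries, 0 correlations passed a permutation test with Benjamini-Hochberg adjustment, and 7 had an unadjusted p under 0.05 by Spearman's rho. The smallest p by rho was that of Six2 and Eya2 (Pearson r 0.47, permutation p 0.0203, adjusted p 0.243; rho 0.51, p 0.00648, adjusted p 0.226). Without the 2 libraries farthest from the median of Six2, r was 0.37, and within sets it was -0.66 in set 1, 0.77 in set 2, 0.37 in set 5 and 0.49 in set 6. Six2 and Six4 had the highest rho, 0.63 (p 0.0126, adjusted p 0.226; Pearson r 0.55, permutation p 0.0385, adjusted p 0.243). Their r was 0.53 without the 2 libraries farthest from the median of Six2 and positive in each set, at 0.93, 0.36, 0.70 and 0.70 in sets 1, 2, 5 and 6, and without Nipbl_het replicate 2 it was 0.46. Six4 and Eya1 had the highest r, 0.73 (permutation p 0.0311, adjusted p 0.243; rho 0.48, p 0.0478, adjusted p 0.244), which was 0.44 without the 2 libraries farthest from the median of Six4. For Sobp, the residual correlations with its network partners were all above an unadjusted p of 0.05.

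The genes that followed each tested member most closely were taken from 12074 genes. After removal of genotype and set means, Eya3 was followed most closely by Mcm3ap (Spearman rho 0.88 over 37 libraries) and Eif4ebp2 (rho 0.88), and Six5 by Ankrd13b (rho 0.82) and Gpr153 (rho 0.81). Dach1 was followed by Fnbp1l (rho 0.79) and Med13, a Mediator subunit gene (rho 0.77), and Eya4 by Ubtd2 and Vkorc1l1 (rho 0.76 each). For the low genes the closest were Bud13 for Six4 (rho 0.72), Dlg3 for Six2 (rho 0.70) and Mks1, a ciliary gene, for Eya1 (rho 0.59). These are descriptions over libraries that share depth and composition differences, with no test.

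Among other genes of the SIX- and DACH-families, Dach2 could be tested and was not called in any comparison. Its averaged log2 change with Nipbl loss was 0.30 (SE 0.20, adjusted p 0.537), and 0.20 without Nipbl_het replicate 2 (adjusted p 0.651). Six3 had no count in 35 libraries and Six6 none in 36. Of 7 Pax genes, which act with SIX- and EYA-family proteins in several organs, Pax6 and Pax8 could be tested. Pax6, an eye and forebrain regulator, rose with Nipbl loss averaged over the Isl1 genotypes (log2 change 0.81, SE 0.19, adjusted p 0.00697) and fell with Isl1 loss averaged over the Nipbl genotypes (log2 change -0.95, SE 0.17, adjusted p 0.0103), where 0.173% of all genes were called. Its highest level in any library was 1.26 CPM. Isl1 loss, averaged in the same way, went with 0 calls among the members, 0 at an unadjusted p under 0.05 and 0 in DESeq2.

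Of 15 corepressors and other cofactors of the network, all tested, Tle1, a Groucho-type corepressor, was called in double_het against wild-type (log2 change 0.25, SE 0.06, adjusted p 0.0258), and 0 of the 15 were called with Nipbl loss averaged, their median being 0.05 beside 0.01 over all genes. Without the library labelled Nipbl_het replicate 2, Tle1 was also called in Nipbl_het against wild-type (log2 change 0.23, adjusted p 0.0202) and with Nipbl loss averaged (log2 change 0.17, adjusted p 0.0131), each time as the only one of the 15, in fits that called 2.72% and 6.93% of all genes. Of 13 genes known to act upstream or downstream of the network, 9 could be tested. Tbx1, a pharyngeal T-box factor known to act upstream of the network, rose in Nipbl_het against wild-type (log2 change 1.38, SE 0.35, adjusted p 0.0322) and in double_het against wild-type (log2 change 1.37, SE 0.37, adjusted p 0.0348). It reached 5.59 CPM at most, in double_het replicate 6, with a median of 1.01 CPM over all libraries, and 5.38 CPM in the library labelled Nipbl_het replicate 2. Without that library its log2 change was 1.01 and not called in Nipbl_het (adjusted p 0.0605) and 1.45 and called in double_het (adjusted p 0.00293). Tbx1 is also one of the pharyngeal markers above, of which it and Isl1 were the 2 of 9 tested that were called in Nipbl_het against wild-type. Without Nipbl_het replicate 9, 0 of the 9 were called there (Tbx1 adjusted p 0.0745, Isl1 adjusted p 0.0740). The other 8 upstream and downstream genes, among them Fgf8, Fgf10 and Sall1, were not called in any genotype comparison. In the library labelled Nipbl_het replicate 2 Fgf10 reached 15.2 CPM, against a median of 2.42 CPM over all libraries. Without it, Fgf10, a growth factor of the second heart field, was called lower in double_het against wild-type (log2 change -0.51, SE 0.16, adjusted p 0.0473) and with Isl1 loss averaged (log2 change -0.49, SE 0.11, adjusted p 0.0276).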

How the data were processed

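Bulk RNA sequencing was done on 37 mouse hearts at stage E10.5. The authors deposited whole read counts per gene symbol; STAR, featureCounts and the builds GRCm38 and mm10 are named in the submitters' processing notes, with no versions or strand setting. Genes were filtered by filterByExpr (minimum count 10, minimum total 15), scaled by TMM and fitted with edgeR 4.0.16 (limma 3.58.1, R 4.3.3) by genotype and set number over 15046 genes, with Benjamini-Hochberg adjustment over all of them and a threshold of 0.05. Standard errors came from the F statistic. Correlations used log2 CPM (prior count 2) after removal of genotype and set means, with 100000 permutations within genotype and set. Permutations ran in scipy 1.17.1 and pandas 2.3.3 under Python 3.11.15, and plots in matplotlib 3.10.9. Exon lengths and positions came from GENCODE on GRCm38 and promoters from RefSeq, which held 7 of the 9 members. Alternatives included DESeq2 1.42.0. On simulated counts over 15046 genes, averaged Nipbl changes were recovered in 67.2% of genes at a log2 change of 0.5, 95.7% at 1 and 98.4% at 2. In the same simulation 8 unchanged genes were called. The simulated counts held no set effects, and the changed genes were drawn from all genes tested. Recovery at the levels of the members was not measured. P-values measure the spread between these libraries. The members and the gene lists were chosen with earlier results of these data known. All members are named; list genes are named where called (at most 6 per list and comparison) or where a high library is described, the latter chosen after their values were seen. Results for one gene of the lists are not reported here.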

Additional observations from a re-analysis of the deposited data

Results flagged for a closer look

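Among 36 combinations of a member and a genotype, 8 had a lowest or highest library set apart from the rest. Its gap to its neighbour took up an unusually large share of the group's range. Chance gives about 1 in 20 for normally distributed values, a rate that may not hold at the low counts of Eya2 and Six2. Of the 8, 3 were in the library labelled Nipbl_het replicate 2. Six4 was 14.4 CPM there and 3.98 CPM in the next library, and Eya1 was 5.92 CPM and 2.76 CPM in the next. Six5 was lowest there at 19.9 CPM, with 26.6 CPM in the next. Eya2 stood high in a library of each of 3 genotypes, at 1.33 CPM in Nipbl_het replicate 9 (next 0.246 CPM), 0.951 CPM in Isl1_het replicate 5 (next 0.318 CPM) and 0.502 CPM in wild-type replicate 7 (next 0.148 CPM). Six2 was 1.92 CPM in double_het replicate 8 (next 0.749 CPM), and Eya1 was lowest in double_het replicate 4 at 1.29 CPM (next 2.11 CPM). Sobp, Eya3, Eya4 and Dach1 had no such library in any genotype.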

How the results depend on the processing

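The averaged change of Sobp with Nipbl loss was called in all 50 alternative fits, between -0.88 and -0.65 on the log2 scale. Without set 5, 0 members were called in Nipbl_het against wild-type (Sobp -0.61, adjusted p 0.0627), in double_het against wild-type (-0.76, adjusted p 0.0732) and in double_het against Isl1_het (-0.78, adjusted p 0.175), where fewer libraries remained. With pharyngeal markers as a covariate 0 were called in Nipbl_het against wild-type (-0.64), and with epicardial markers 0 in double_het against wild-type (-0.55); both fits were added after seeing the data. Leaving out each library in turn gave 1 to 2 called members in Nipbl_het against wild-type and with Nipbl loss averaged (2 without the library labelled Nipbl_het replicate 2: Sobp and Six5), and 1 to 4 associated with set. That last count was 2 in a DESeq2 likelihood ratio test, without a filter, without set 5 and with erythroid markers, and 0 without set 2. The cause of these shifts was not tested. Replicate numbers did not pair the libraries: deviations of libraries with the same number correlated at 0.037 on average (lowest -0.449). A replicate block in place of the set term left Sobp called, at -0.60, -0.65, -0.70 and, averaged, -0.65. Of 3237 other values, 3161 were labelled the same. For changes this means called in both fits whatever the shift, or called in neither with a shift below the SE. For levels it means a shift below the SD. No called change turned its sign, 5 values lost a call and 2 gained one. Depth limits Eya2 and Six2, where few counts carry each value, and intervals from counts cover counting error only.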
